A study of Arabidopsis thaliana with 4 samples.

Results

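The genes examined here are those that lie on the chloroplast genome of Arabidopsis thaliana. Their members were all probe sets of the Affymetrix ATH1 array with exactly 1 annotated gene that the gene table places on that genome, which gave 69 of 22746 gene probe sets. The 69 members cover 69 different genes, out of 78 protein gene symbols that the gene table lists for the chloroplast. The rule reads the genome of a gene and no signal.

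There were 4 arrays, 2 for wild type plants of the accession Wassilewskija-2 (Ws-2) and 2 for 35S::CBF2 plants. The latter express CBF2, a transcription factor of the cold response, from the 35S promoter of cauliflower mosaic virus, which is active in most tissues. All plants were whole seedlings, 10 days old, grown at 24 °C in continuous light on agar plates after a cold stratification of 4 days at 4 °C. The labels give the accession, Ws-2, for the wild type only. The 35S::CBF2 titles have the codes E24 and E2 although both protocols name E2, so it is unsettled whether 1 line or 2 were used. Both of these titles give replicate number 1, and the numbers 1 and 2 used here for the 35S::CBF2 arrays follow the sample order. Plates held about 100 plants each, so a sample probably pools many plants. How the samples of a group were kept apart is not stated, so each p-value reflects the spread between these 4 samples alone, part of which may be technical.

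The chloroplast is the photosynthetic organelle of the plant cell and keeps a small genome of its own. That genome encodes the core subunits of the photosystems, of the cytochrome b6f complex, of the ATP synthase and of the NADH dehydrogenase-like complex (NDH), the large subunit of Rubisco, and part of the organelle's ribosome and RNA polymerase. The remaining subunits come from nuclear genes, so each complex is built from transcripts of both compartments. Many chloroplast genes are read as long transcripts over several genes, which are then cut and processed into smaller RNAs. A bacterial-type polymerase, whose core the chloroplast encodes, reads most photosynthesis genes, and a phage-type polymerase from the nucleus reads the genes for that core. Most chloroplast mRNAs carry no stable poly(A) tail. Standard labelling for this array primes from such tails, and the priming of these samples is not named in the sources used here.

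Across the 69 members, 1 difference between 35S::CBF2 and wild type passed the test, the rise of rbcL. Values are MAS5 signals on a linear scale, and differences are on the log2 scale, 35S::CBF2 minus wild type. Of the 69 members, 68 passed the filter on low signal (a mean over the 4 arrays above the 40th percentile of gene probe sets), and ndhF did not. For comparison, 3.36% of the 13647 probe sets tested on the array passed (limma, Benjamini-Hochberg adjusted p under 0.05), 2.11% higher and 1.25% lower, so 1 of 68 is not above the background. At an unadjusted p under 0.05 the count was 20 of 68 members, where 13.1% of all tested probe sets reached it. The median log2 difference over the 69 members was 0.38, against -0.04 over all tested probe sets. With the letter of the titles (A or B), whose meaning the labels do not give, as a block, 8 members were called, all higher, where 4.84% of all tested probe sets were (2.78% higher, 2.06% lower). These were rbcL (adjusted p = 0.00191), matK (0.00380), atpH (0.0107), psbT (0.0158), atpF (0.0282), psbB (0.0295), psbH (0.0317) and psaC (0.0480), so in 7 genes the block changed the call. The median over the members rested on 1 wild type array, which is described next.

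Wild type replicate 2 stood apart from the other 3 arrays in its chloroplast transcripts. It had the lowest of the 4 signals in 53 of 69 members, where 22.4% of all tested probe sets had their lowest signal there. Wild type replicate 1 exceeded it in 62 of 69 members, against 49.5% of all tested probe sets. A gap of at least 2-fold separated the wild type arrays in 26 of 69 members, all 26 of them lower on replicate 2. Among the 67 members whose signals exceeded 14.5 on every array, the highest value of 27 control probe sets for genes of bacteria, the count was 24, and their median gap was 0.78 log2. Over all tested probe sets 1.34% lay that far apart in this direction and 0.799% in the other. The median gap, wild type replicate 1 minus replicate 2, was 0.83 log2 over the members, and for the tested members it had quartiles of 0.23 and 1.20. For the 7191 nuclear probe sets with 1 gene that passed the filter, the same median was 0.00, with quartiles of -0.22 and 0.22. The gap compares 1 array with 1 array, so it has no test. In RNA of whole plants, fewer green cells and less chloroplast RNA per cell cannot be told apart.

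The 35S::CBF2 arrays did not differ in this way. Their median difference over the members, replicate 1 minus replicate 2, was 0.15 log2, and 0 of 69 members lay 2-fold apart, where 2.38% of all tested probe sets did. Both 35S::CBF2 arrays were close to wild type replicate 1, with a median log2 difference of -0.06 over the members. Against wild type replicate 2 the same median was 0.80. With replicate 2 left out, rbcL was again the 1 member called, higher, where 2.73% of all tested probe sets were called (1.8% higher, 0.931% lower). With replicate 1 left out, 27 of the 68 tested members were called, all higher, where 3.01% of all tested probe sets were (2.26% higher, 0.755% lower). They were 6 of 10 NDH genes, 4 of 6 ATP synthase genes, 6 of 15 and 3 of 5 genes of photosystems II and I, 3 of 6 assembly and other genes, 2 of 7 large ribosomal subunit genes, 1 of 4 polymerase genes, rbcL and matK. None of the 6 cytochrome b6f genes and none of the 8 small ribosomal subunit genes was among them. In both of these fits the lone wild type array is assumed to vary like the 35S::CBF2 arrays.

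**Figure D1:**
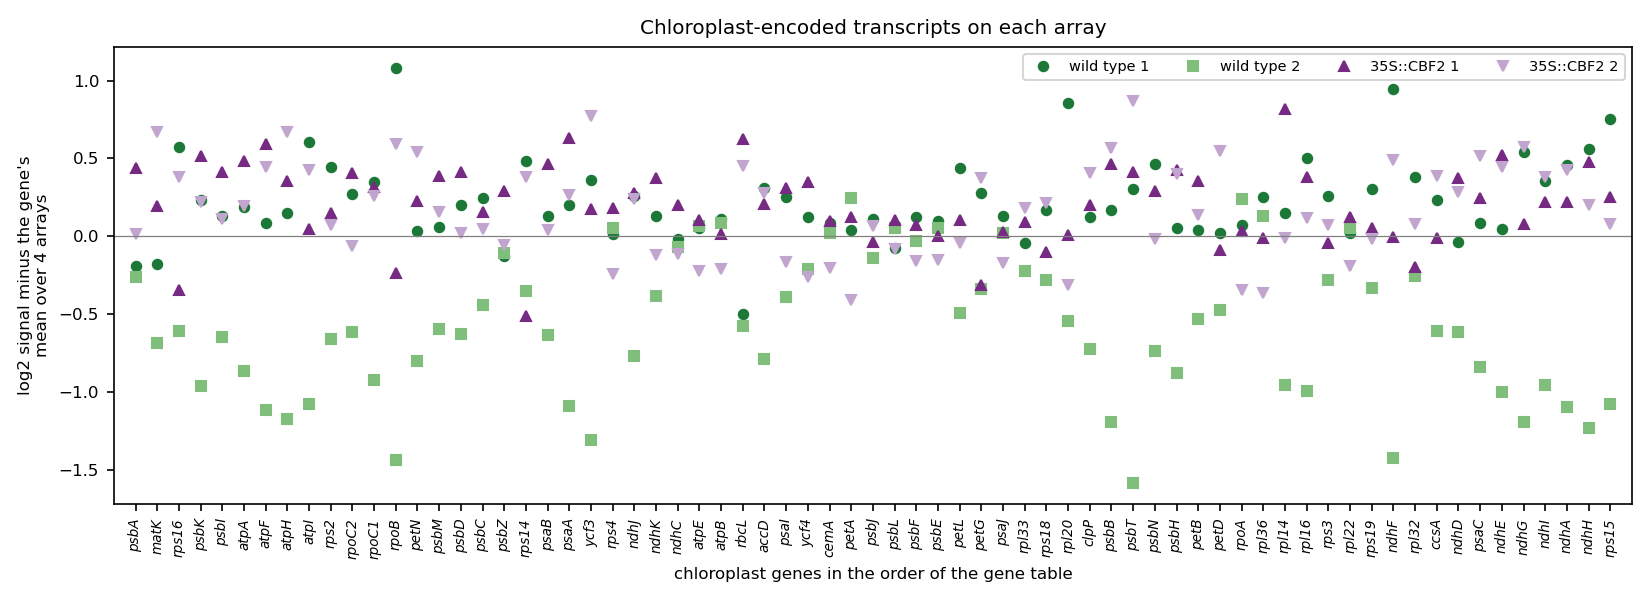
The 69 chloroplast genes are ordered as in the gene table on the x axis, and the y axis gives the log2 signal on each of the 4 arrays minus the gene's mean over the arrays. The light green squares of wild type replicate 2 are lowest in 53 genes, while at rbcL both wild type arrays lie below both 35S::CBF2 arrays.

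Array-wide measures did not set wild type replicate 2 apart. The median over all gene probe sets was 42.1 on wild type replicate 1 and 41.6 on replicate 2. The arrays had been scaled to a common trimmed mean before deposit, so similar medians are largely given by that scaling. The ratio of 3′ to 5′ signal, a measure of RNA integrity, was 1.25 and 1.28 for actin, 0.819 and 0.795 for GAPDH and 1.40 and 1.37 for ubiquitin on wild type replicates 1 and 2. On the 35S::CBF2 arrays these ratios were 1.28 and 1.36, 0.767 and 0.739, and 1.25 and 1.15. All of these control genes are nuclear, so the ratios do not measure the integrity of chloroplast RNA. The part of labelling or of the share of green tissue in the gap between the wild type arrays was not tested.

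The gene rbcL encodes the large subunit of Rubisco, the enzyme that fixes carbon dioxide. Its signal was 169.5 on wild type replicate 1, 160.3 on wild type replicate 2, and 369.8 and 327 on 35S::CBF2 replicates 1 and 2. The groups did not overlap, and the wild type arrays were only 1.06-fold apart. The rise was 2.11-fold, with a log2 difference of 1.08 ± 0.17 (SE, n = 2 per group, limma adjusted p = 0.00574). It was 1.04 without wild type replicate 2 (adjusted p = 0.0241) and 1.12 without wild type replicate 1 (0.0134), and it was 0.99 and 1.17 without 35S::CBF2 replicates 1 and 2 (0.0225 and 0.0132). The call was lost without the intensity trend in the variance model, at an unchanged difference (adjusted p = 0.0550). When the arrays were centred on the chloroplast members, the log2 difference of rbcL was 0.79 and was not called (adjusted p = 0.880), a setting that moves every other probe set by the gap of wild type replicate 2. The neighbours of rbcL in the gene table are atpB, which encodes the beta subunit of the ATP synthase and is read in the opposite direction, and accD, for a subunit of acetyl-CoA carboxylase. The signals of atpB were 7922 and 7760.2 in wild type against 7400.5 and 6343 in 35S::CBF2, with a log2 difference of -0.19 ± 0.13. For accD they were 168 and 78.4 against 157 and 164, so 35S::CBF2 overlapped wild type there. Neither neighbour passed (adjusted p = 0.639 and 0.591).

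**Figure D2:**
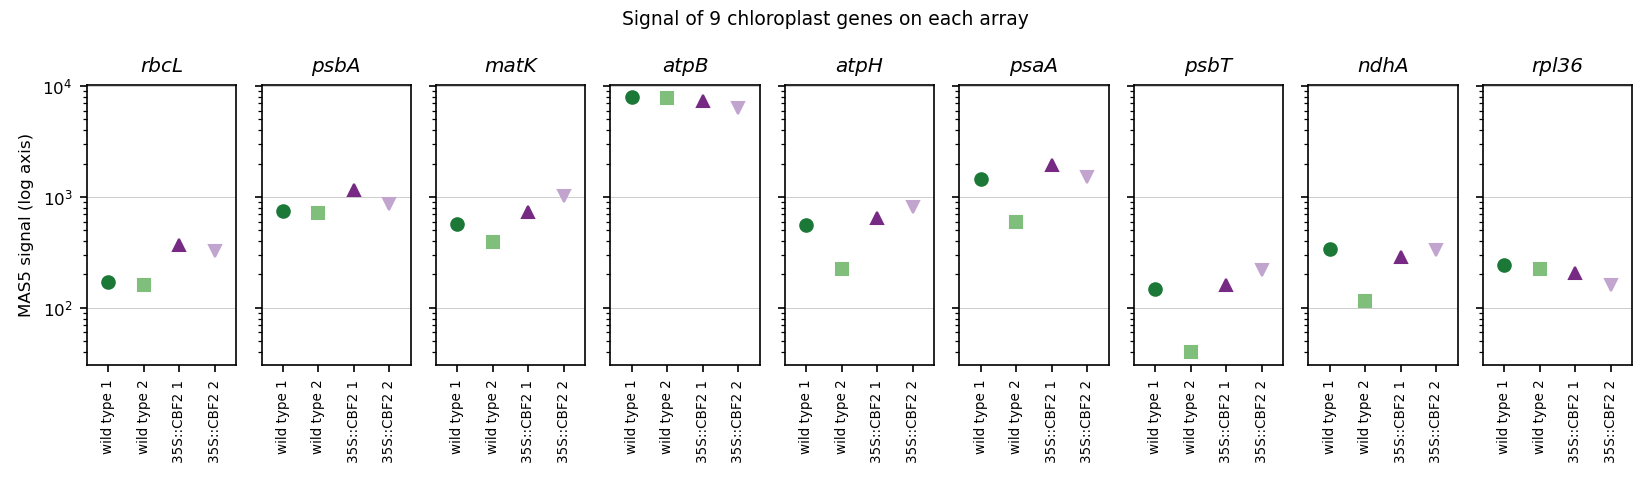
Each panel shows the MAS5 signal of 1 chloroplast gene on the 4 arrays, on a log axis, 1 point per array. In rbcL the arrays separate by group. In atpH, psaA, psbT and ndhA wild type replicate 2 lies apart from the other 3 arrays. In atpB and rpl36 the wild type arrays differ little, and both 35S::CBF2 arrays lie below them.

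The 15 measured genes of photosystem II, which splits water, had a median log2 difference of 0.43, and 0 of 15 passed (limma), or 3 of 15 (psbB, psbT and psbH) with the title letter as a block. Against wild type replicate 1 alone the median was 0.13 and against replicate 2 alone 0.85. The gene psbA, for the D1 reaction centre protein that is replaced fastest in the light, had signals of 751 and 716 in wild type against 1162.5 and 868 in 35S::CBF2. Its groups did not overlap and the wild type arrays were alike, yet its difference of 0.45 ± 0.17 log2 missed the threshold (adjusted p = 0.256). For psbT, which encodes a small subunit, the signals were 148, 39.8, 159 and 218 on wild type replicates 1 and 2 and 35S::CBF2 replicates 1 and 2. Here wild type replicate 1 was close to 35S::CBF2 and replicate 2 was 3.70-fold lower than replicate 1. The difference of psbT was the largest of the class, at 1.28 ± 0.46 (adjusted p = 0.227), and it was 0.34 without wild type replicate 2 and 2.23 without replicate 1 (adjusted p = 2.59e-04). The inner antenna protein gene psbB had signals of 235 and 91.6 in wild type against 288 and 309 in 35S::CBF2, and was likewise lowest on wild type replicate 2. At the other end of the class stood psbE, for a cytochrome b559 subunit, with 1152 and 1117 in wild type against 1077 and 967 in 35S::CBF2. It was lower on both 35S::CBF2 arrays, but its difference of -0.15 ± 0.15 log2 missed the threshold (adjusted p = 0.770).

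Photosystem I, which reduces ferredoxin, had 5 measured genes with a median log2 difference of 0.50 and 0 called, or 1 (psaC) with the title letter as a block. The reaction centre gene psaA had signals of 1445 and 589 in wild type against 1943 and 1506 in 35S::CBF2. Its wild type arrays were 2.45-fold apart, and its log2 difference was 0.89 ± 0.32 (adjusted p = 0.229), the largest of the class. Without wild type replicate 2 this difference was 0.24 and without replicate 1 it was 1.54. The partner gene psaB, which shares a transcript with psaA, gave 0.12 and 0.89 in the same fits. The small subunit gene psaJ had the lowest difference, -0.15 ± 0.14, and 4413 and 4101 as its wild type signals against 4108 and 3578.

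Cytochrome b6f passes electrons between the photosystems. Its 6 measured genes had a median log2 difference of 0.26, and none passed (limma). The small subunit gene petN had the largest difference of the class (0.77 ± 0.34, adjusted p = 0.374), from 39.6 and 22.1 in wild type to 45.2 and 56.3 in 35S::CBF2. The cytochrome f gene petA had the lowest, at -0.29 ± 0.19 (adjusted p = 0.609), with 1384 and 1596 in wild type against 1465 and 1011 in 35S::CBF2. In petA, unlike most members, wild type replicate 2 was the brightest of the 4 arrays. Between the wild type arrays the 6 genes had a median gap of 0.60 and 0 of them reached 2-fold.

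The ATP synthase genes fell into their 2 transcription units. The beta and epsilon subunit genes atpB and atpE had wild type gaps of 0.03 and -0.01 log2, and differences of -0.19 and -0.12. The other 4, atpA, atpF, atpH and atpI, had gaps from 1.06 to 1.68, all past 2-fold. Signals of atpF, for a subunit of the peripheral stalk, were 464 and 201 in wild type against 658 and 593 in 35S::CBF2, and those of atpH, for the membrane ring, were 563 and 225 against 649 and 808. Both 35S::CBF2 arrays lay above wild type replicate 1 in both genes, by less than the gap between the wild type arrays. Their log2 differences were 1.03 ± 0.31 and 1.03 ± 0.33 (adjusted p = 0.123 and 0.169), and under the block on title letters both were called (0.0282 and 0.0107). Without wild type replicate 2 they were 0.43 and 0.36, and did not pass (adjusted p = 0.518 and 0.656).

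The NDH complex carries electrons around photosystem I. Of its 10 measured genes 9 were tested, 0 passed, and the title letter as a block changed none of these calls. Of the 8 genes above the bacterial controls on every array, 5 were at least 2-fold lower on wild type replicate 2 than on replicate 1, and the median gap of the 8 was 1.04 log2. Signals of ndhA were 339.5 and 116 in wild type against 288 and 332 in 35S::CBF2. Those of ndhI were 1589 and 641 against 1447 and 1615. In both genes the mean of the 35S::CBF2 arrays was near wild type replicate 1, at -0.13 and -0.06 log2 from it. Only ndhD and ndhE, 2 of the 10 NDH genes, had groups without overlap, higher in 35S::CBF2. Signals of ndhD were 592 and 396 in wild type against 788 and 742 in 35S::CBF2. Those of ndhE were 48.1 and 23.2 against 66.8 and 63.3. For this pair the 35S::CBF2 mean was 0.37 and 0.44 log2 above wild type replicate 1. The difference of ndhD missed the threshold (limma adjusted p = 0.125). The largest difference was that of ndhE (0.96 ± 0.35, adjusted p = 0.226) and the smallest that of ndhC (0.09 ± 0.16, adjusted p = 0.913). The member left untested, ndhF, had signals of 8.87, 1.71, 4.57 and 6.46, all under the highest control signal of 14.5, so no fold is given for it. On wild type replicate 2, ndhH (12.4) was below that level too.

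The chloroplast makes part of its own ribosome and RNA polymerase. The 7 large and 8 small ribosomal subunit genes had median log2 differences of -0.07 and 0.03, with 0 of 15 called. Among them rpl36 was the lowest, with 246 and 226 in wild type against 204 and 159.9 in 35S::CBF2. It was lower on both 35S::CBF2 arrays (-0.38 ± 0.19, adjusted p = 0.455). The largest difference was that of rpl14, whose signals were 108 and 49.9 in wild type against 171 and 96.4 in 35S::CBF2 and overlapped (0.81 ± 0.36, adjusted p = 0.374). In the small subunit the differences ran from -0.13 (rps14) to 0.33 (rps15). The ribosomal genes were still part of the wild type gap, with medians of 0.63 and 0.74 log2 for the large and small subunit, and 6 of 15 at least 2-fold lower on replicate 2. The 35S::CBF2 signals lay below wild type replicate 1 (medians of -0.26 and -0.31) and above wild type replicate 2 (0.36 and 0.34).

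The 4 polymerase core genes had a median log2 difference of 0.35. For rpoB, the first gene of its unit, signals were 85.4 and 14.9 in wild type against 34.3 and 60.7 in 35S::CBF2. The 5.73-fold gap between the wild type arrays was the widest of any tested member. It rests on a wild type replicate 2 signal close to the highest bacterial control signal of 14.5. The log2 difference of rpoB was 0.36 ± 0.64, smaller than its error. The differences of rpoC1 and rpoC2 were 0.58 and 0.34. The alpha subunit gene rpoA, which lies at the end of the ribosomal protein unit, had 363 and 408 in wild type against 354 and 272 in 35S::CBF2, so it was brighter on wild type replicate 2 and lower on both 35S::CBF2 arrays (-0.31 ± 0.18, adjusted p = 0.553). None of the 4 passed.

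Of the remaining genes, matK came closest to the threshold. It encodes the maturase that helps to splice several chloroplast introns. Its signals were 564 and 396 in wild type against 731 and 1015 in 35S::CBF2, without overlap, and its log2 difference was 0.87 ± 0.21 (adjusted p = 0.0549). It was called with the title letter as a block (adjusted p = 0.00380), without 35S::CBF2 replicate 1 (0.0146) and without wild type replicate 1 (0.0135), and was not called without wild type replicate 2 (difference 0.61, adjusted p = 0.295). Over all alternatives its adjusted p ran from 0.00380 to 0.880. The 6 genes for assembly and other functions (ycf3 and ycf4 for photosystem I assembly, ccsA for cytochrome c maturation, the protease gene clpP, the envelope protein gene cemA, and accD) had a median log2 difference of 0.43 and 0 called. They ran from -0.11 ± 0.15 in cemA to 0.95 ± 0.44 in ycf3. Signals of ycf3 were 91.8 and 28.8 in wild type against 80.5 and 122 in 35S::CBF2, which overlap, while those of cemA were 1439.7 and 1379 against 1450.6 and 1181.

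**Figure D3:**
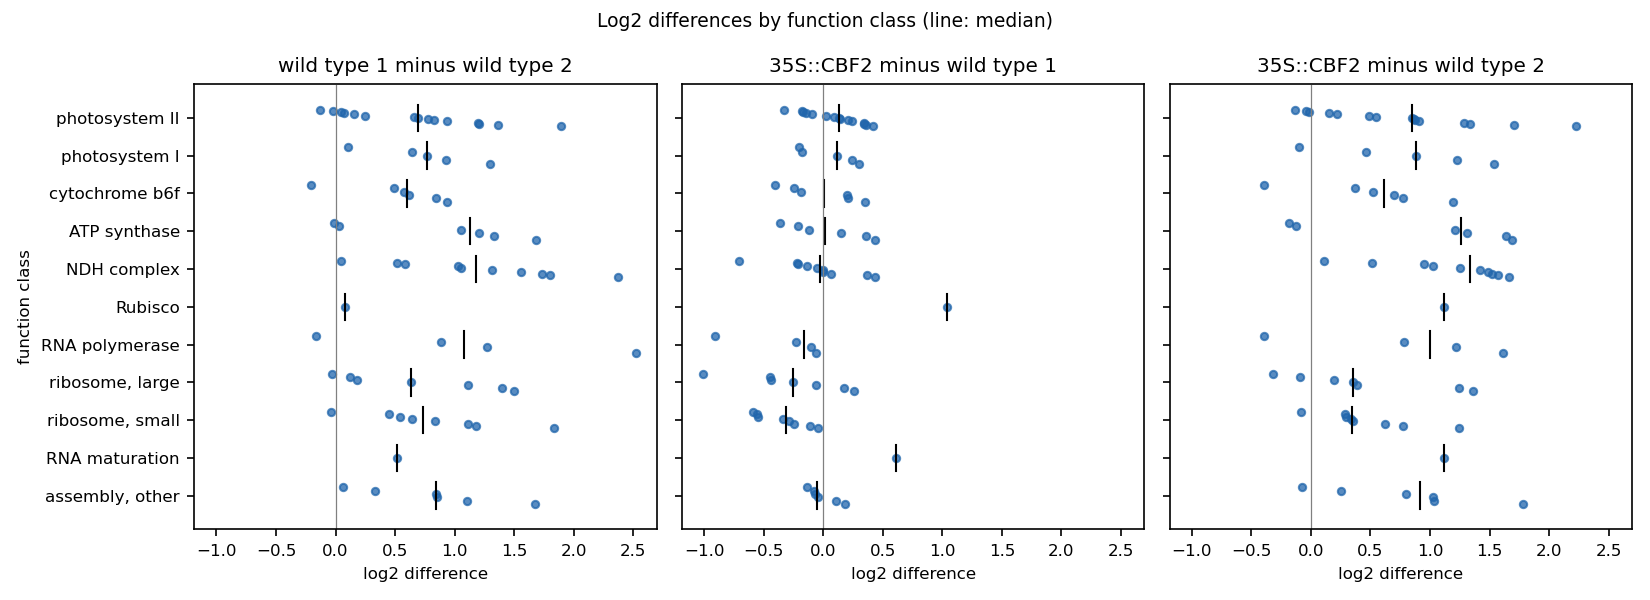
Points are chloroplast genes and lines their medians, by function class, on a shared axis of log2 difference. Left, wild type replicate 1 minus 2; centre, the mean of the 35S::CBF2 arrays minus wild type replicate 1; right, the same minus wild type replicate 2. Most classes centre near 0 in the middle panel. The exceptions are rbcL at 1.04, matK at 0.61 and the large and small ribosomal subunit at -0.26 and -0.31. In the outer panels the classes are shifted right, except rbcL at 0.08 in the left panel.

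Groups were apart without overlap in 23 of 69 members, 19 higher and 4 lower in 35S::CBF2, where 41.7% of all tested probe sets were apart (17.8% higher, 23.9% lower). The 4 lower ones were atpB, psbE, rpoA and rpl36, and in each the wild type arrays differed by less than 0.25 log2. Such a small gap between the wild type arrays was found in 18 of 69 members. For these 18 the choice of wild type array matters little by construction. They are psbA, psbZ, rps4, ndhC, atpE, atpB, rbcL, cemA, petA, psbJ, psbL, psbF, psbE, psaJ, rpl33, rpoA, rpl36 and rpl22, and their median log2 difference was -0.08, from -0.38 (rpl36) to 1.08 (rbcL).

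The wild type gap followed transcription units in part. The members fall into 15 units of at least 2 measured genes, which hold 55 of them. Genes of 1 unit share a precursor RNA and are not independent. In the unit of psbE, psbF, psbL and psbJ the gap, wild type replicate 1 minus replicate 2, ran only from -0.13 to 0.25 log2, and in that of atpB and atpE from -0.01 to 0.03. In the unit of rps2 and the genes atpI to atpA it ran from 1.06 to 1.68, so all 5 genes were at least 2-fold lower on replicate 2. The 7 genes from ndhH to ndhD, psaC among them, had a median gap of 1.31, or 1.18 without ndhH, whose wild type replicate 2 signal was under that of the bacterial controls. Of the 6 without ndhH, 4 were past 2-fold.

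Other units were uneven. Along psbB, psbT, psbH, petB and petD the gap was 1.36, 1.89, 0.93, 0.57 and 0.49, although all 5 are cut from 1 precursor. The gene psbN, which lies within that unit on the opposite strand, had a gap of 1.20. From ndhC over ndhK to ndhJ it was 0.05, 0.51 and 1.03. In the ribosomal protein unit rps19, rpl22, rps3, rpl16, rpl14, rpl36 and rpoA had gaps of 0.64, -0.03, 0.54, 1.501, 1.11, 0.12 and -0.17. That range of 1.67 log2 within 1 unit was the widest, against a median range of 0.62 over the 15 units and a range of 2.73 over all members. Between the 35S::CBF2 arrays, units were uneven as well, with a median range of 0.52 and a wider range than between the wild type arrays in 5 of 15 units. In the unit of psaA, psaB and rps14 the range was 1.32 in 35S::CBF2 against 0.53 in wild type, and in that of petL and petG it was 0.84 against 0.31. In the unit from rps2 to atpA the 35S::CBF2 differences ran from -0.38 to 0.29, on both sides of 0.

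**Figure D4:**
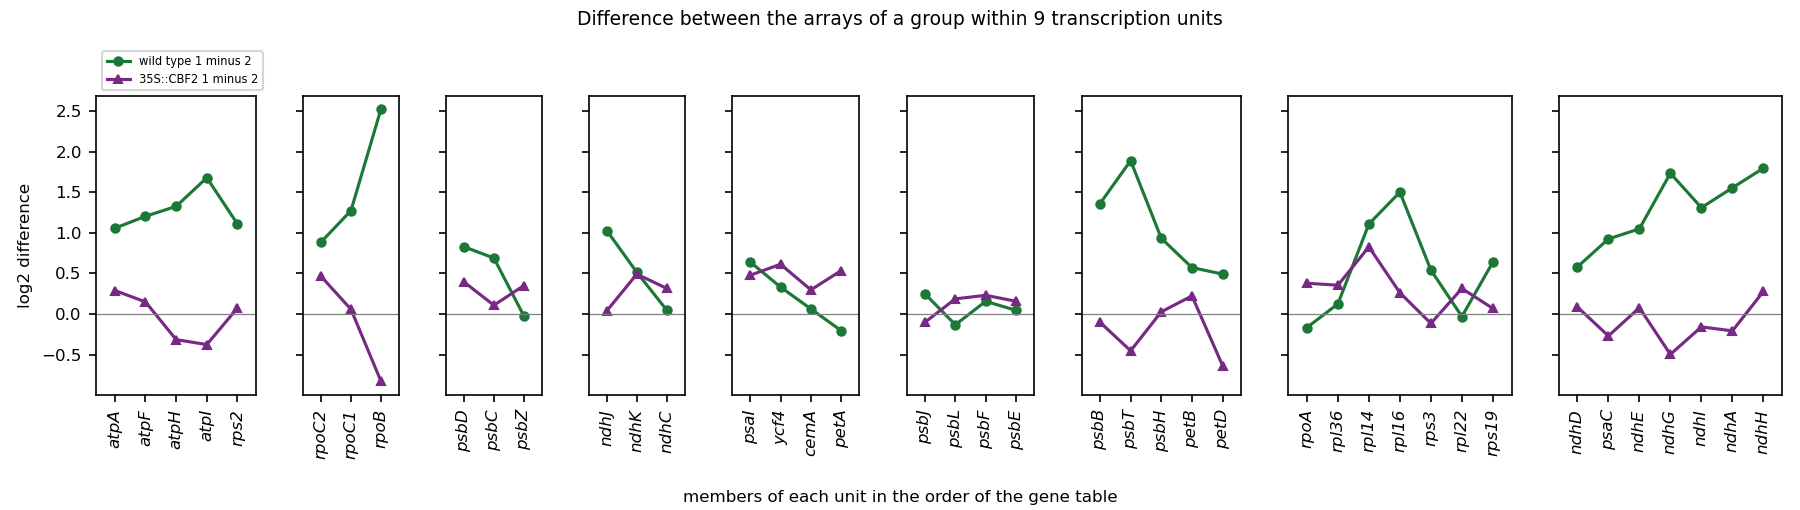
Panels are 9 transcription units, with their measured genes in the order of the gene table on the x axis. The y axis is the log2 difference between the 2 arrays of a group, wild type in green circles and 35S::CBF2 in purple triangles. The wild type line lies above 1 throughout the unit from atpA to rps2 and near 0 throughout that from psbJ to psbE, and it bends within the others.

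By position, the 11 members of the small single-copy region, mostly ndh genes, had a median wild type gap of 1.31 log2 (1.05 for the 9 above the bacterial controls on every array) and the 58 of the large single-copy region one of 0.67. By gene structure, the 9 members with an intron (atpF, clpP, ndhA, petB, petD, rpl16, rpoC1, rps16 and ycf3) had gaps from 0.49 to 1.67. Their median was 1.20, against 0.73 in the 60 other members. Probe sets with 2 annotated genes were not part of this grouping. Both groupings were chosen after the gap had been seen, and they have no test. The inverted repeat holds 2 copies of each of its genes, whose probe sets carry 2 annotated genes and are therefore no members. Of 8 such probe sets, 2 are for rps12 and 1 each for rpl2, rpl23, ycf2, ndhB, rps7 and ycf1. Their median gap was 0.88, with -0.07 for rpl2 and 0.00 for rpl23, which open the ribosomal protein unit, and 1.12 for rps7. None of the 7 tested passed (limma), nor did any at an unadjusted p under 0.05 (0 of 7), and their median log2 difference was 0.06.

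Nuclear genes whose products join the chloroplast-encoded subunits had smaller median gaps between the wild type arrays. Of 40 listed genes for light harvesting and photosystem subunits 7 were measured, and their median gap was 0.19 log2. In this list 6 of 7 genes were higher on wild type replicate 1, 3 of 7 were lowest on wild type replicate 2, and the gap ran from -0.58 in LHCB4.3 to 0.74 in LHCB4.2. Signals of LHCB4.2, for a minor antenna protein of photosystem II, were 3537 and 2118 in wild type, and the gap of the photosystem I subunit gene PSAN was 0.36. For 4 of 19 listed genes of electron transport, ATP synthase, NDH and Rubisco it was -0.07, and for 9 of 33 plastid ribosomal protein genes -0.02. Between the genotypes these lists had median log2 differences of -0.03, -0.08 and -0.09, and 0 of 20 genes passed (limma), with 1 of 20 at an unadjusted p under 0.05. That gene was AT3G13120, for a ribosomal protein of the plastid small subunit, at -0.31 (adjusted p = 0.361). The next in its list was AT1G64510, at -0.26 (0.501). In the other lists the smallest p-values were those of LHCB4.3 (0.40, adjusted p = 0.565) and PSBY (-0.21, 0.701), and of NdhL (-0.21, 0.667) and NdhN (-0.11, 0.918). The ATP synthase gamma subunit gene ATPC1 had nearly equal signals on the wild type arrays, with a gap of 0.02. Its chloroplast partners were split. The genes atpB and atpE had gaps of 0.03 and -0.01, close to that of ATPC1, while atpA, atpF, atpH and atpI had gaps from 1.06 to 1.68. None of the small subunit genes of Rubisco listed here was measured with a named probe set, so no partner of rbcL can be set beside it. Its activase gene RCA had a log2 difference of -0.05. Of the 9 polymerase and sigma factor genes listed 1 was measured, and it was not tested.

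Mitochondrial genes, whose mRNAs also lack stable poly(A) tails, were dim on this array. The 18 probe sets for 11 such genes had signals from 0.912 to 74.2, and 4 passed the filter. The gap between the wild type arrays was -0.25 in cox1, -0.14 in nad1, 0.05 in nad4 and 0.97 in nad9. None of the 4 was called between the genotypes (limma), and 1 had an unadjusted p under 0.05. That was cox1, with a log2 difference of 0.54 (adjusted p = 0.377), followed by the 1 tested probe set of nad1 with 0.58 (0.554). The other nad1 probe sets did not pass the filter, and their differences went in both directions. Root markers, which stand for tissue without green chloroplasts, were measured for 3 of 13 listed genes. Between the wild type arrays EXPA7, EXPA18 and PYK10 differed by -0.29, 0.01 and 0.35, and between the genotypes by -0.10, -0.26 and 0.04, with 0 of 3 called (limma) and 0 of 3 at an unadjusted p under 0.05. The listed markers SCR and SHR were not among the named probe sets.

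**Figure D5:**
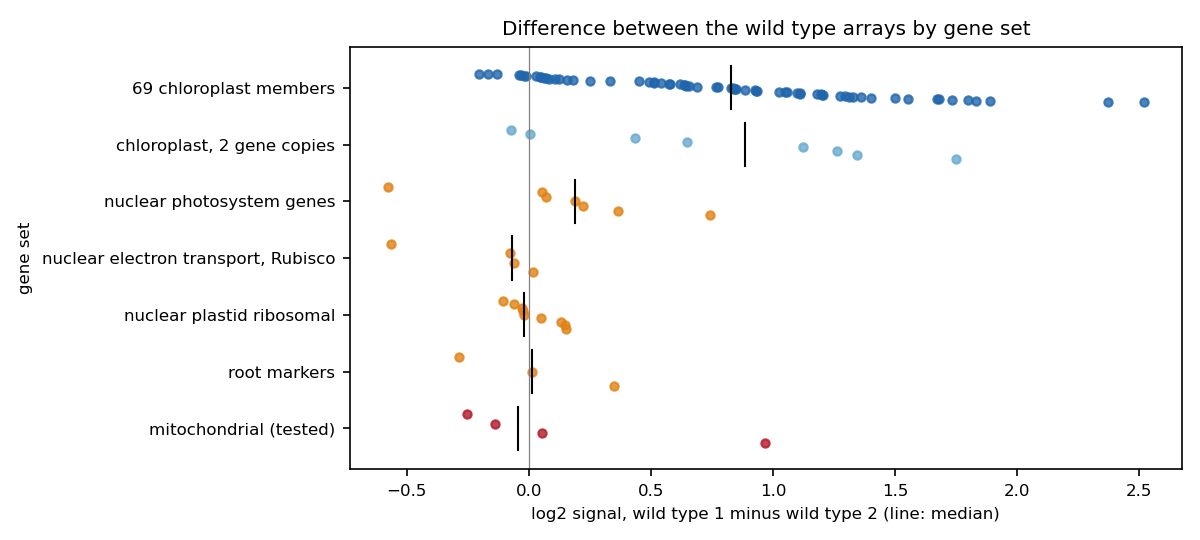
Each point is 1 probe set, placed by its log2 signal on wild type replicate 1 minus replicate 2, and lines are medians. The chloroplast members reach from -0.21 to 2.52 with a median of 0.83, while the medians of the nuclear lists, the root markers and the tested mitochondrial genes lie between -0.07 and 0.19.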

How the data were processed

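RNA of 4 samples was hybridised to 1 ATH1 array each. The deposited table gives 1 linear signal intensity per probe set and array, computed by the authors with MAS5 (submitters' processing notes), of a version not named in the sources used here. The mean trimmed by 2% at each end was 100.0 on every array, so the authors had scaled the arrays before deposit, and no scaling was added. Of 22810 probe sets, 64 controls were left out. Genes came from a platform annotation (13513 probe sets with 1 gene, 503 with several, 8730 not listed) and from RefSeq genes (assembly TAIR10.1), used for names and gene order only. Mitochondrial genes were matched by symbol. All 69 members have probe set names that the array does not mark as shared.

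Signals were taken to log2. Probe sets with a mean above the 40th percentile (geometric mean signal 24.8) were tested on the whole table with limma 3.58.1 in R 4.3.3 (lmFit and eBayes, trend on), two-sided. Benjamini-Hochberg adjustment was made over 13647 probe sets. The 2 arrays per group limit the precision. On signals simulated for the contrast between 35S::CBF2 and wild type, over those 13647 probe sets, 75 of 100 changes of 2-fold and 99 of 100 of 4-fold were recovered, with 6 false calls. Recovery was not simulated for the chloroplast members alone. Across the tested members the gap between the wild type arrays had a standard deviation of 0.60 log2, against 0.39 across all tested probe sets. This spread between probe sets leaves out the shift that the members share. Their median gap was 0.80 log2, against -0.004 over all tested probe sets, and it adds to the spread within wild type. The rates of recovery may therefore not hold for the members. The members, the classes, the transcription units, which are textbook units, and the lists were chosen with earlier results of these data known. All members may be named, with signals planned for the called gene, psbA, rbcL and the extremes of each class. Those of the extremes ndhC, rps14, rps15 and rpoC1 are not given, while signals of some other members are. Of each comparison list the 2 smallest p-values are named. Some neighbours in a unit, ATPC1, RCA, LHCB4.2 and PSAN were added after their values were seen. Alternatives were quantile normalization, 2 kinds of centring, 3 filter or offset settings, 2 variance models, the title letter (A or B) as a block, leaving out each array, a threshold of 0.1, and no shared probe sets. Sequences were not used here.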

Additional observations from a re-analysis of the deposited data

How the results depend on the processing

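No paired analysis was possible because the replicate numbers in the titles do not pair the arrays: both 35S::CBF2 titles give number 1. A blocked fit was run on the letters of the titles instead, whose meaning the labels do not give. The number of chloroplast genes called higher was 1 as reported. It was 0 without the intensity trend and 0 after centring on the chloroplast probe sets, 2 with an offset before the log, 2 at an adjusted p under 0.1, 8 with the letter of the titles as a block, and 1 to 27 with an array left out in turn (27 without wild type replicate 1, 2 without 35S::CBF2 replicate 1). The cause was not tested. The median over the members (0.38) ran from -0.059 without wild type replicate 2 to 0.80 without wild type replicate 1. In 7 members called without wild type replicate 1 the sign turned without replicate 2: atpI ran from -0.37 to 1.31, rpoC1 from -0.057 to 1.22, accD from -0.065 to 1.03, rpl16 from -0.26 to 1.24, ndhG from -0.22 to 1.52, ndhI from -0.056 to 1.25 and ndhA from -0.13 to 1.42. No chloroplast gene was called lower in any alternative. The rise of rbcL kept its call in 13 of 15 alternatives. Among these the threshold of 0.1 could not remove the call, and leaving out shared probe sets did not change its signals. In dim members such as rpoB and ndhH, close to the level of the bacterial controls, the signal limits what can be told.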
